A study of Mus musculus with 52 samples.

Results

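Nanog, Dppa3 and Gdf3 lie side by side on mouse chromosome 6. The stretch described here runs from 122540000 to 122720000 in mm9 coordinates, 180 kb in all, and its members are all ChIP-seq peaks that share at least 1 bp with it. These were 367 of the 928298 peaks in 43 lists, and 37 of the 43 lists had at least 1. H3K27ac gave 114 of them in 9 lists, Mi2B 104 in 7 lists, H3K4me3 74 in 9 lists, Oct4 38 in 5 of 7 lists, H3K27me3 26 in 5 of 8 lists and Mbd3 11 in 2 of 3 lists. Within the stretch peaks were taken by position alone, but the genes and the lists were chosen with earlier results of these data known.

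The lists come from fibroblasts reprogrammed towards pluripotency in cells that differ in Mbd3. Mouse embryonic fibroblasts (MEF) of the genotypes Mbd3+/+ and Mbd3flox/- carried a doxycycline-inducible transgene for the reprogramming factors Oct4, Sox2, Klf4 and Myc (OSKM). They were profiled before induction, on days 4 and 8 of doxycycline at 2 ug/ml, and as induced pluripotent stem (iPS) cells. Mbd3-/- cells were profiled only as embryonic stem (ES) cells. MEF were grown in DMEM with FBS, and all later stages and the ES cells in 2i/LIF medium. Between MEF and the later stages, medium and stage therefore cannot be told apart. Each genotype was 1 selected clonal series. The Mbd3+/+ clone carried the GOF18 deltaPE-Oct4-GFP reporter and the Mbd3flox/- and Mbd3-/- cells the complete GOF18 Oct4-GFP reporter, both inserted at random. Between Mbd3+/+ and Mbd3flox/- cells, genotype, clone and reporter therefore cannot be told apart. The submitters state that the endogenous Nanog locus was not manipulated in any line. Below, +/+, flox/- and -/- stand for the Mbd3 genotypes. Every group rests on a single list, from 1 library, so none of the values below has a replicate check and no test was made.

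Nanog is a homeodomain transcription factor of the naive pluripotent state. Dppa3, also called Stella, is a maternal and germline protein that protects DNA methylation in the early embryo, and Gdf3 is a ligand of the TGF-beta family made by pluripotent cells. In mouse ES cells Nanog is known to be controlled by enhancers on both sides of the gene that bind Oct4 together with Sox2. Mbd3 is part of NuRD, a complex that removes histone acetylation and moves nucleosomes, and Mi2B is the remodelling ATPase of that complex. H3K4me3 marks promoters, H3K27ac marks active promoters and enhancers, and H3K27me3 is laid down by Polycomb.

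The promoter of Nanog is shown because all 5 Oct4 lists made after induction had a peak at the gene's start. RefSeq gives a promoter window for 1 of the 3 genes, Nanog, with 2 alternative starts. The sequence runs from 250 bases before to 50 bases after the first of these starts, on the plus strand of GRCm38.p6 at chr6:122707239-122707538, and the capitals mark a match to the Oct4-Sox2 composite motif.

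Nanog promoter: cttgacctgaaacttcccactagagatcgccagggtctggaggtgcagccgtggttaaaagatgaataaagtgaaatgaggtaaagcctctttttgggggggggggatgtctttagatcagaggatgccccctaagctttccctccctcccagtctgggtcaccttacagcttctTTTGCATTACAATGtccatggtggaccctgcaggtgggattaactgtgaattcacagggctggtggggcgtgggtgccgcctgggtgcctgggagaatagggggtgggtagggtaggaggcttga

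The motif was searched on both strands as the Sox2 letters CATTGT, any 1 base and the Oct4 letters ATGCAAA, and its match, on the minus strand, fills bases 176 to 189 of the window. It was found in 2 of 32851 RefSeq promoter windows of this length (0.00609%), which are the 2 windows of Nanog. These 2 windows overlap and hold the same match, so it is 1 site. Only these exact letters were counted, so other forms of the motif in other promoters would be missed. The Oct4 letters alone were in 4.63% of the windows and the Sox2 letters alone in 12.6%, and both lie inside the composite. The match is a description of these letters. The peaks are in mm9 coordinates and were not placed on this sequence base by base.

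Distances below are from the Nanog start, taken as 122657600 in mm9, with minus for upstream, and are those of a peak's midpoint unless 2 ends are given. A peak was counted at the Nanog start if it touched the 1 kb on either side. The positions of Gdf3 and Dppa3 were known only approximately, and a stretch of 5 kb on either side of each was used, from 122555000 to 122565000 and from 122575000 to 122585000. The score is the authors' own value for each peak and serves only to rank peaks within a list. A rank is not comparable between lists of unequal length. Read depth is unknown, and a missing peak means only that none was detected. Neither MEF list had an H3K4me3 peak at the Nanog start or in the Gdf3 or Dppa3 stretch. Both iPS lists and the ES list had one at all 3. These peaks are themselves among the results below, so they are not an independent check of the stage labels. They also cannot check the lists made during doxycycline, some of which have a title and a stage label that name different days.

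Nanog had no H3K4me3 at its start in MEF and one of the widest H3K4me3 peaks of each list in iPS and ES cells. No H3K4me3 peak touched the Nanog start in MEF of either genotype or in +/+ cells on day 4. On day 4 the flox/- list had a peak of 1335 bp with a score of 129.23, rank 15914 of 20678. On day 8 the peak was 2650 bp wide in +/+ cells and 4888 bp in flox/- cells. In iPS cells it was 8205 bp wide in +/+ and 10608 bp in flox/-, and in -/- ES cells it was 8399 bp. At most 0.122% of the peaks in any of these iPS and ES lists were as wide or wider, against 2.27% in the +/+ and 0.723% in the flox/- list on day 8. The flox/- peak was the only one on day 4 and the wider one later, but the flox/- lists had wider peaks as a whole. The median width was 1049 bp in +/+ and 1496 bp in flox/- on day 8, and 1280 and 1911 bp in iPS cells. In iPS cells the share of peaks as wide or wider was nearly the same, 0.0757% in +/+ and 0.0774% in flox/-.

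H3K27ac at the Nanog start was also missing in both MEF lists, and was present on day 4 in both genotypes. On day 4 the +/+ peak was 8107 bp wide, from -6.6 to 1.5 kb, and joined the start with an upstream site. The flox/- list instead had separate peaks of 2964 bp at the start and 2971 bp at -4.5 kb. On day 8 the peak at the start was 9618 bp wide in +/+ cells and 20401 bp in flox/- cells, the latter covering the whole gene. In iPS cells the order of the widths was the other way, with 24337 bp in +/+ and 16508 bp in flox/-. In -/- ES cells the width was 24440 bp. Peaks as wide or wider made up 3.5% of the +/+ and 13.5% of the flox/- list on day 4. These shares were 1.39% and 1.13% on day 8, and 0.469% and 0.229% in iPS cells. Against its own list the flox/- peak was therefore not the narrower one in iPS cells. The upstream site that was joined to the start in +/+ cells on day 4 was acetylated before induction. Its MEF peaks, at -4.6 kb, were 3703 bp wide in +/+ and 3326 bp in flox/-, both at the highest score given in their list, 3100, which many peaks share.

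At Gdf3 acetylation was detected in both genotypes on day 4, and H3K4me3 only from day 8. H3K27ac peaks covered 162 bp of the Gdf3 stretch in +/+ MEF, all of it the edge of a neighbouring upstream peak, and none of it in flox/- MEF. On day 4 they covered 7068 bp in +/+ and 4122 bp in flox/-. On day 8 the values were 7282 and 7319 bp, in iPS cells 7213 and 6256 bp, and in ES cells 7272 bp. The covered lengths of the genotypes were closest on day 8 and farthest apart on day 4. No H3K4me3 peak lay in the Gdf3 stretch in MEF or on day 4. On day 8 the +/+ list had 1 peak of 697 bp with a score of 75.31, and the flox/- list had 2 peaks, of 2976 and 1213 bp, with scores of 590.54 and 84.66. In iPS cells the peaks were 3778 bp wide in +/+ and 3832 bp in flox/-, and in ES cells 3414 bp.

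**Figure D1:**
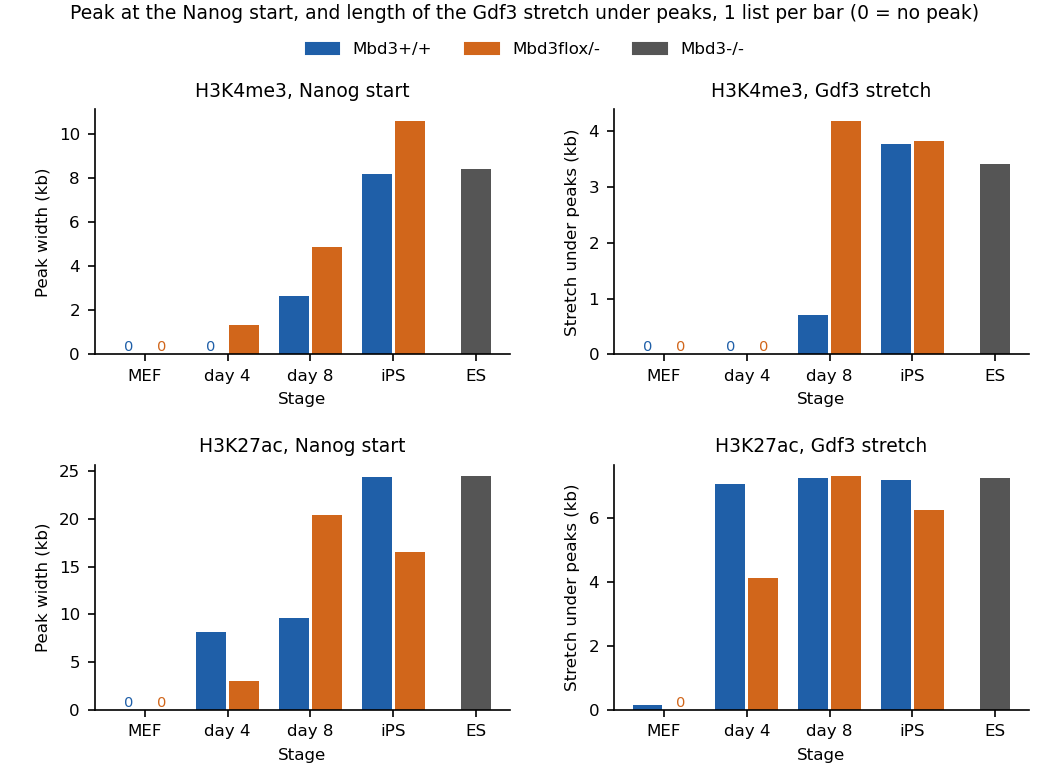
Width in kb of the peak at the Nanog start (left) and length in kb of the Gdf3 stretch under peaks (right), for H3K4me3 (top) and H3K27ac (bottom) by stage, with 1 bar per list and 0 where no peak was detected. The H3K4me3 bars at the Nanog start run from 0 in MEF to between 8205 and 10608 bp in iPS and ES cells, and the small H3K27ac bar at Gdf3 in +/+ MEF is the 162 bp edge of a neighbouring peak.

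Dppa3 had narrower H3K4me3 peaks than Nanog and Gdf3 in both iPS lists. On day 4 the flox/- list had an H3K4me3 peak of 589 bp with a score of 62.37 in its stretch, and no such peak was detected on day 8 in either genotype. The +/+ iPS list had 3 H3K4me3 peaks there, the widest of 1199 bp, the flox/- iPS list 1 of 1377 bp, and the ES list 2, the wider of 4296 bp. H3K27ac peaks covered 3113 bp of the stretch in +/+ MEF and 1411 bp in flox/- MEF. Most or all of this belonged to a peak that runs on beyond the stretch towards Nanog, 4689 bp wide in +/+ and 3499 bp in flox/-. None was detected on day 4. At the later stages H3K27ac was detected in +/+ cells alone, over 1326 bp on day 8 and 3184 bp in iPS cells, and in -/- ES cells it covered 5716 bp. Whether this differs between the genotypes beyond the spread between libraries was not tested.

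**Figure D2:**
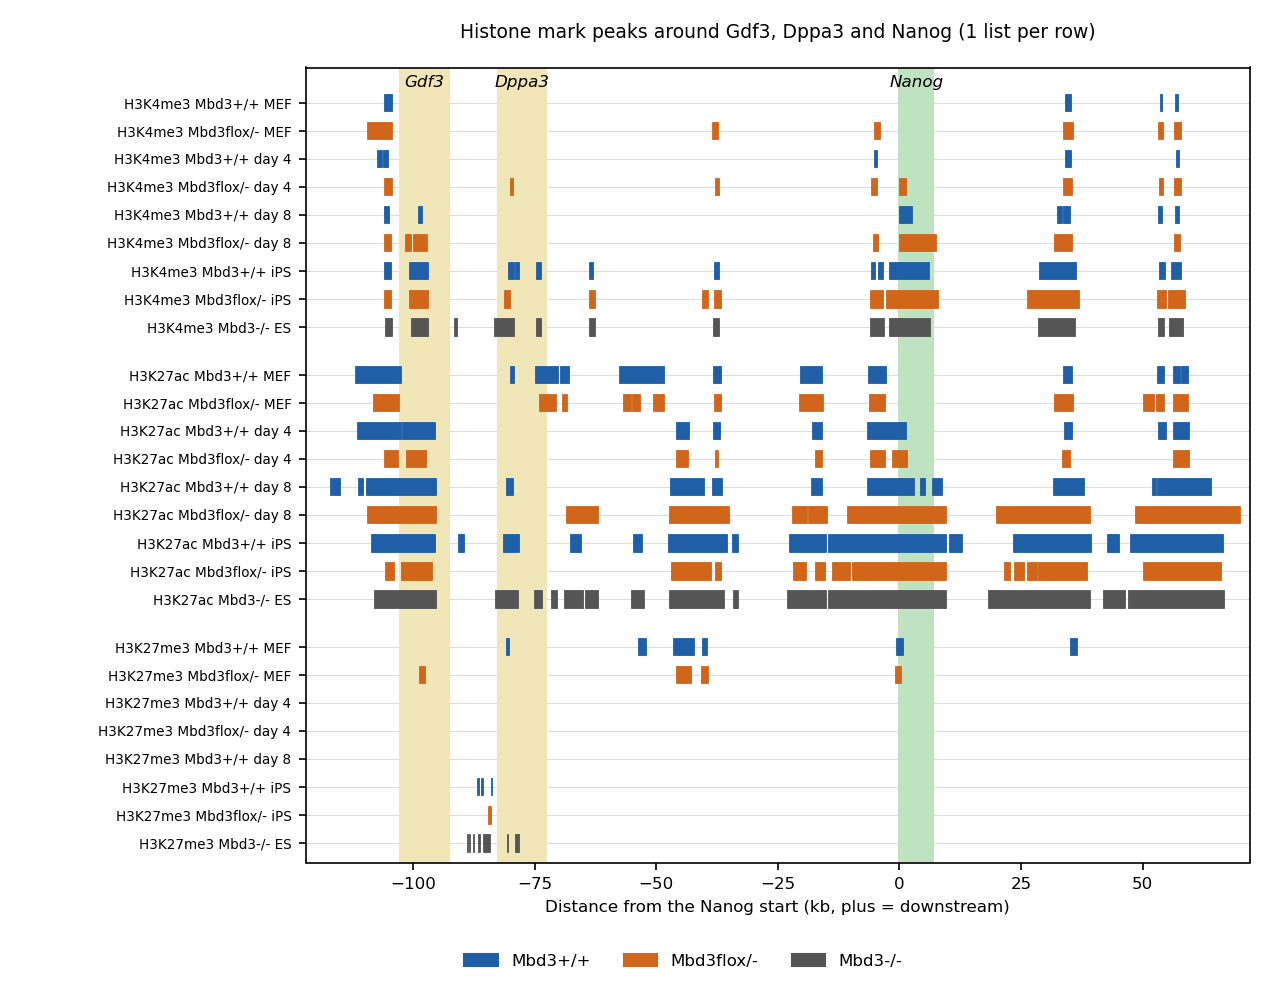
Peaks of H3K4me3, H3K27ac and H3K27me3 over the 180 kb, 1 row per list, plotted by distance from the Nanog start in kb with downstream to the right. Shaded bands are the Gdf3 and Dppa3 stretches and the Nanog gene body, and the H3K27ac rows fill from 35.7 to 42.1 kb in MEF to between 73.0 and 115.0 kb in iPS and ES cells.

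Over the whole cluster, H3K27ac covered 42.1 kb in +/+ MEF and 35.7 kb in flox/- MEF. With +/+ first, the day 4 values were 37.4 and 22.3 kb, those of day 8 were 59.3 and 93.7 kb and those of iPS cells 103.0 and 73.0 kb. In -/- ES cells it covered 115.0 kb, 63.9% of the stretch. The flox/- value was therefore the lower at every stage but day 8, where it was 1.58 times the +/+ value. Over all peaks of the same lists the ratio of flox/- to +/+ was 0.94 on day 8, so that the whole flox/- list covered slightly less of the genome than the +/+ list. In iPS cells the ratio was 0.71 in the cluster and 0.52 over the lists. The stretch was compared with 14649 tiles of the same length on the autosomes and the X chromosome. In MEF 8.74% of the tiles had as much H3K27ac or more in +/+ and 9.84% in flox/-. On day 8 these shares were 0.642% and 0.109%, in iPS cells 0.157% and 0.0751%, and in ES cells 0.0341%, or 5 tiles.

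The acetylated ground was not the same at each stage. In MEF a block from -57.6 to -49.6 kb, between Dppa3 and Nanog, was covered by a single peak of 8070 bp in +/+ cells, with a score of 1403.83. In flox/- MEF 3 smaller peaks, of 904 to 1734 bp, lay wholly in it. No H3K27ac peak was detected there on days 4 or 8 in either genotype, and in iPS and ES cells only peaks of low score were seen (58.93 in +/+ iPS, 134.41 in ES). The neighbouring region around -44.7 kb was the reverse, with no H3K27ac in MEF. Its day 4 peaks were 2719 bp wide in +/+ and 2323 bp in flox/-, those of day 8 were 6907 and 12333 bp, and those of iPS cells 12250 and 8144 bp. The ES peak was 8574 bp wide.

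On day 8 flox/- cells had fewer H3K27ac peaks than +/+ cells, over a greater length of the cluster. The flox/- list had 8 H3K27ac peaks in the stretch and the +/+ list 14. Peaks were also wider in the flox/- list as a whole, with a median of 3032 bp against 1909 bp in +/+. The widest flox/- peak, of 21629 bp, ran from 48.5 to 70.1 kb downstream and had the highest score given in its list, 3100. Over the part of this ground inside the 180 kb +/+ cells had 3 peaks, of 785, 2243 and 9046 bp. Of the 8 flox/- peaks 6 overlapped a +/+ peak (69.1% of the whole list did), and of the 14 +/+ peaks 11 overlapped a flox/- peak (43.0% of the whole list). In iPS cells 14 of the 15 flox/- peaks overlapped a +/+ peak (87.3% of the list) and 6 of the 13 +/+ peaks overlapped a flox/- peak (54.3%), which is near the share of the lists.

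Of the 13 H3K27ac peaks of +/+ iPS cells, 8 overlapped a peak in +/+ MEF (52.9% of all peaks of that list did) and 7 one in flox/- MEF (50.2%). On day 4 it was 6 in +/+ (45.1%) and 6 in flox/- (50.0%), and on day 8 it was 7 in +/+ (54.6%) and 7 in flox/- (51.8%). These counts are near the share of the whole list at each of these stages. When at least 50% of a site had to be covered, 2 sites were left in each MEF list, 1 in each day 4 list, 4 in the +/+ day 8 list and 7 in the flox/- day 8 list. In ES cells 11 of the 13 were overlapped (76.2%).

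H3K4me3 covered more of the cluster in flox/- than in +/+ cells at every stage. MEF had 4.0 kb in +/+ and 11.8 kb in flox/-, day 4 cells 4.8 and 10.1 kb, day 8 cells 8.2 and 19.1 kb, and iPS cells 30.8 and 39.7 kb. The ES cells had 36.0 kb. The ratio of flox/- to +/+ was 2.94, 2.11, 2.33 and 1.29 from MEF to iPS cells. The flox/- lists were also larger as a whole, with ratios of 2.32, 1.91, 1.61 and 1.13 over all their peaks. The cluster was thus above its lists at each stage, in a ratio with no replicate behind it.

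Beside the 3 genes, H3K4me3 peaks were seen at 3 sites in all 9 lists, MEF included, which in +/+ MEF lay at -105.2, 34.7 and 57.0 kb. The site at 34.7 kb was 1319 bp wide in +/+ MEF and 2155 bp in flox/- MEF, and its widest peak reached 7580 and 10758 bp in the iPS lists and 7645 bp in ES cells. The widest H3K4me3 peak of the flox/- iPS list in the stretch was thus not the one at Nanog. These sites are not assigned to a gene here. In the order of genes in RefSeq, Apobec1 is the next gene beyond Gdf3 and Slc2a3, a glucose transporter, the next beyond Nanog.

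**Figure D3:**
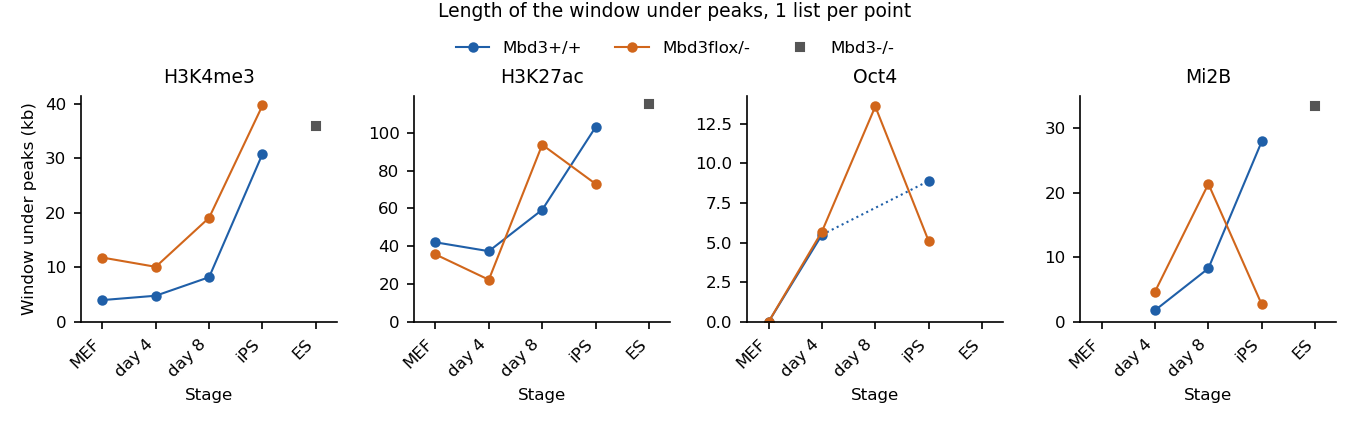
Length of the 180 kb stretch under peaks, in kb, by stage for H3K4me3, H3K27ac, Oct4 and Mi2B, with 1 point per list and lines joining the lists of a genotype. For H3K27ac the flox/- line lies above the +/+ line on day 8 alone, and the +/+ line for Oct4 is dotted between day 4 and iPS because a +/+ day 8 list was not analysed here.

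H3K27me3 was found in the cluster in MEF of both genotypes, and its main site was later an Oct4 site. The widest MEF peak was 3145 bp in +/+ cells, with a score of 446.47, and 3180 bp in flox/- cells, with a score of 293.96, centred at -43.7 and -44.4 kb. Both MEF lists also had a peak at -40.1 and -40.0 kb, of 1126 and 1496 bp, and one over the Nanog start, of 1443 and 1276 bp. At Gdf3 a peak of 1327 bp was seen in flox/- MEF alone, and in the Dppa3 stretch one of 705 bp in +/+ MEF alone. The mark covered 10.5 kb of the stretch in +/+ MEF and 7.3 kb in flox/- MEF, but with scores of at least 100 the order was the other way, with 5556 bp in +/+ and 6003 bp in flox/-.

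The lists of days 4 and 8 had no H3K27me3 peak in the stretch, but they were short, with 570 peaks in +/+ and 567 in flox/- on day 4 and 939 in +/+ on day 8, against 36232 and 35023 in MEF. A missing mark and a short list cannot be told apart there. The label of the +/+ day 4 library also gives day 5 as its stage, and that of the +/+ day 8 library says that it repeats the record of one biological sample. In iPS and ES cells the mark was again listed, but elsewhere. It lay between -88.8 and -78.2 kb, upstream of and within the Dppa3 stretch, in peaks of 155 to 598 bp, 3 in +/+ iPS, 1 in flox/- iPS and 11 in ES cells. None touched Nanog or Gdf3.

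Oct4, one of the 4 induced factors, had no peak in the cluster in MEF of either genotype, where its lists held 274 and 489 peaks in all. After induction 5 lists gave 38 peaks at 13 separate sites. A list was counted at a site if it had any peak there, also one that starts past the edge of the 180 kb, and 9 of the sites were in at least 2 lists. All 5 lists held the sites at -99.2 kb in the Gdf3 stretch, -4.8 kb, -0.5 kb at the Nanog start, and 58.8 kb. The site at -44.7 kb was in 4 lists, all but flox/- iPS, and that at -82.9 kb, at the upstream edge of the Dppa3 stretch, was in 4, all but flox/- day 4. The sites at 57.4 and 62.8 kb were in 3 lists each and that at -17.2 kb in 2. The other 4 sites, at -46.4, -13.4, 37.5 and 55.1 kb, were in 1 list each. How often merged Oct4 sites elsewhere in the genome were held by as many lists was not counted.

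The strongest Oct4 site of the cluster was not the same at each stage. On day 4 it was Gdf3 in both genotypes, with a score of 910.2 in +/+ (rank 209 of 16785 peaks) and 383.62 in flox/- (rank 1331 of 33755). The -4.8 kb site followed, with 643.26 in +/+ and 232.25 in flox/-, and the Nanog start was lower, with 136.77 and 138.8. On day 8 in flox/- cells it was the site at 62.8 kb, with a score of 1318.16 (rank 120 of 19805), which lies across the downstream edge of the 180 kb. Just past that edge the same site had low-scoring peaks in flox/- cells on day 4 (56.81, rank 30574 of 33755) and in +/+ iPS cells (69.19, rank 7905 of 11881), and none in flox/- iPS cells. In iPS cells it was the site beside Dppa3 in both genotypes, with 514.53 in +/+ (rank 186 of 11881) and 317.44 in flox/- (rank 82 of 3331). The Nanog start came next there, with 362.77 and 230.94. At the Dppa3 site the day 4 score was 88.73 in +/+ cells (rank 8798), and no flox/- peak was detected.

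**Figure D4:**
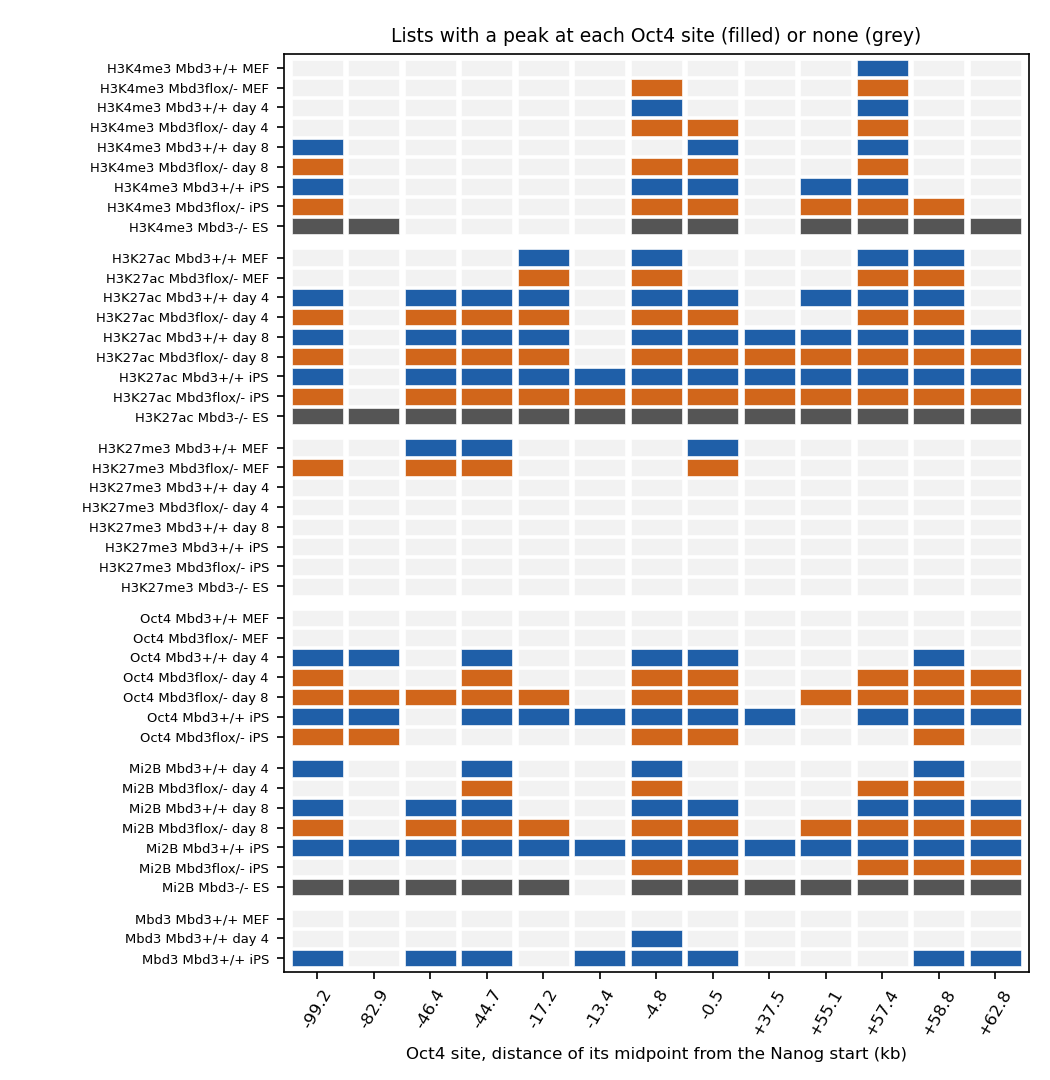
The 13 Oct4 sites, named by distance from the Nanog start in kb, against the lists of each antibody; a filled cell marks a list with a peak at the site. Sites are columns and lists are rows, coloured by genotype. The columns for -99.2, -4.8, -0.5 and 58.8 kb are filled in all 5 Oct4 lists made after induction, and the H3K27ac cells of MEF are filled at 4 of the 13 sites in each genotype.

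Day 4 cells had 5.5 kb of the stretch under Oct4 in +/+ and 5.7 kb in flox/-. In flox/- cells of day 8 it was 13.6 kb, and iPS cells had 8.9 kb in +/+ and 5.1 kb in flox/-. With equal numbers of top peaks the iPS values were 5777 and 5096 bp. Among the tiles, 3 (0.0205%) had as much Oct4 or more in +/+ iPS cells and 3 in flox/- iPS cells, and 17 (0.116%) in flox/- cells on day 8. Of the 10 Oct4 sites of +/+ iPS cells 6 had a peak on day 4 in +/+ (26.9% over the whole list) and 6 in flox/- (30.3%). On day 8 in flox/- cells it was 8 of 10 (59.9%). All 5 flox/- iPS peaks overlapped a +/+ iPS peak (84.7% of the list), and 5 of the 10 +/+ peaks overlapped a flox/- peak (23.9%), the flox/- list being the shorter.

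The 13 Oct4 sites lay in different kinds of MEF chromatin. In MEF, H3K27ac was present in both genotypes at 4 of them, at -17.2, -4.8, 57.4 and 58.8 kb. H3K27me3 was present in both at 3 others, at -46.4, -44.7 and -0.5 kb, the last being the Nanog start. The flox/- MEF list also had it at the Gdf3 site. In flox/- MEF 1 H3K27me3 peak touched both the -46.4 and -44.7 kb sites, and 1 H3K27ac peak both the 57.4 and 58.8 kb sites. Day 4 lists had H3K27ac at 9 of the 13 sites in +/+ and 8 in flox/-, day 8 lists at 11 in each genotype, iPS lists at 12 in each and the ES list at all 13. The share over all merged Oct4 sites was not counted. Of all Oct4 peaks on day 4, H3K27ac of the same stage lay on 65.9% in +/+ and 51.3% in flox/-. It lay on 57.5% in flox/- cells on day 8, and on 69.0% in +/+ and 57.0% in flox/- iPS cells. These counts are therefore not shown to be particular to the cluster. The site beside Dppa3 had an H3K27ac peak in the ES list alone, while Oct4 was listed there from day 4 in +/+ cells.

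Day 4 Oct4 peaks of the cluster were set against MEF chromatin of the same genotype. In +/+ cells 2 of 6 lay on MEF H3K27ac (43.7% over the whole list) and 2 of 6 on MEF H3K27me3 (5.11%). In flox/- cells 3 of 6 lay on MEF H3K27ac (26.6%) and 3 of 6 on MEF H3K27me3 (6.45%). The share on the Polycomb mark was thus above that of the list in both genotypes, over 6 peaks each.

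**Figure D5:**
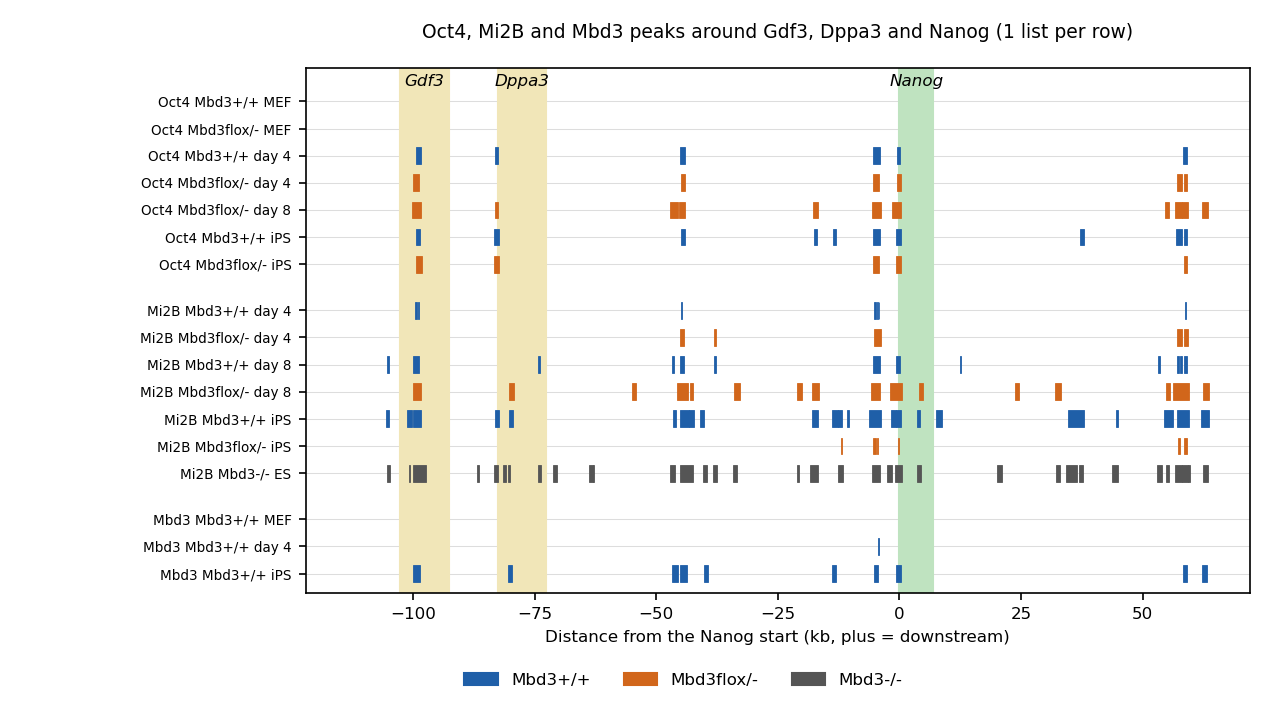
Peaks of Oct4, Mi2B and Mbd3 over the 180 kb, 1 row per list, by distance from the Nanog start in kb; each peak is drawn with a thin outline so that the narrowest can be seen. Shaded bands are the Gdf3 and Dppa3 stretches and the Nanog gene body. The MEF rows of Oct4 and Mbd3 are empty, and the flox/- iPS row of Mi2B has 6 peaks against 23 in +/+.

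Mi2B, the NuRD remodeller, was found on 4 of the 13 Oct4 sites on day 4 in each genotype, and a MEF list was not analysed here. The share over all merged Oct4 sites was not counted. Of all day 4 Oct4 peaks, 24.0% overlapped Mi2B in +/+ and 21.8% in flox/-. Day 4 cells had 1.8 kb under Mi2B in +/+ and 4.7 kb in flox/-, day 8 cells 8.3 and 21.4 kb, and iPS cells 28.0 and 2.7 kb. The ES cells had 33.5 kb. The titles of the +/+ libraries say days 4 and 8 and their stage labels days 7 and 11, and the titles were followed. The flox/- to +/+ ratio on day 4 was 2.54 in the cluster and 2.88 over the lists, so the cluster was not above its lists. On day 8 the ratio was 2.58 in the cluster and 1.22 over the lists. In iPS cells the flox/- list was short as a whole, with 3462 peaks against 26992, and the ratio was 0.1 in the cluster and 0.04 over the lists. With equal numbers of top peaks the iPS values were 13250 bp in +/+ and 2681 bp in flox/-. No tile had as much Mi2B as the cluster in the ES list.

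In several lists peaks of the cluster were among the highest for Mi2B. On day 8 in +/+ cells the peak at -4.7 kb had a score of 490.54, rank 15 of 23280. In flox/- iPS cells the peak at 58.8 kb had a score of 231.51, rank 2 of 3462, and that at -5.1 kb a score of 203.65, rank 8. In -/- ES cells the Gdf3 peak, 2799 bp wide, had a score of 581.99, rank 12 of 29546. In +/+ iPS cells the highest was the peak at -5.0 kb, with 477.36, rank 70 of 26992.

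At the Nanog start no Mi2B peak was detected on day 4. On day 8 it had a width of 726 bp in +/+ and 2445 bp in flox/- cells. In iPS cells +/+ had 2 peaks there, the wider of 1097 bp, and flox/- 1 of 313 bp, and in ES cells 1 peak was 1407 bp wide. At Gdf3 +/+ cells had 2 peaks on day 4, of 320 and 283 bp, and flox/- cells none. On day 8 both had 1, of 1106 and 1595 bp, and in iPS cells +/+ had 2 and flox/- none.

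Of the 6 day 4 Oct4 peaks, 4 overlapped Mi2B in +/+ cells (24.0% over the list) and 4 in flox/- cells (21.8%). On day 8 in flox/- cells 10 of 11 did (38.4%), and in iPS cells 10 of 10 in +/+ (63.6%) and 3 of 5 in flox/- (22.3%), where the Mi2B list is short. Of the 23 Mi2B sites of +/+ iPS cells 4 had a peak on day 4 in +/+ (14.9%) and 3 in flox/- (19.8%), both near the share of the list, and with 50% of a site covered none was left in +/+ on day 4. On day 8 it was 8 in +/+ (26.3%) and 12 in flox/- (29.9%), and in ES cells 20 (47.0%). All 6 flox/- iPS peaks overlapped a +/+ iPS peak (73.0%), and 5 of the 23 +/+ peaks overlapped a flox/- peak (8.74%).

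Mbd3 itself was listed in +/+ cells alone, since Mbd3 lists of the other genotypes were not analysed here. The MEF list, of 1177 peaks, had none in the cluster. The day 4 list, of 1944 peaks, had 1, a peak of 139 bp at -4.3 kb with a score of 89.02, on the -4.8 kb Oct4 site. Its stage label gives day 6. In iPS cells 10 peaks covered 9.0 kb. The highest lay at -44.4 kb, with a score of 151.36, rank 428 of 8657, followed by the Nanog start with 100.51 and Gdf3 with 94.71. Of these 10 peaks 9 overlapped Mi2B (77.7% over the list), 7 overlapped Oct4 (46.3%) and 10 overlapped H3K27ac (85.8%) of the same cells. Of the 13 Oct4 sites 8 had an Mbd3 peak in +/+ iPS cells, and 13 had Mi2B. The share over all merged Oct4 sites was not counted, and merged sites can be wider than single peaks. Of all single Oct4 peaks of +/+ iPS cells, 63.6% overlapped Mi2B.

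Merged over all lists, the Oct4, Mi2B and Mbd3 peaks formed 35 sites, 24 of which were in at least 2 lists. The most often listed were those at -5.0 kb, in 14 lists, and 58.0 kb, in 13, followed by Gdf3, the -44.7 kb site and the Nanog start, in 11 each. Of the 24 sites 11 held Oct4 in at least 1 list. The other 13 were listed for Mi2B or Mbd3 without Oct4. They lay at -105.1, -100.7, -79.8, -74.0, -40.1, -37.9, -33.6, -20.5, -12.1, 4.3, 32.6, 44.3 and 53.6 kb. The one at -79.8 kb, within the Dppa3 stretch, was in 4 of the lists, Mi2B in flox/- cells on day 8, in +/+ iPS and in ES cells, and Mbd3 in +/+ iPS cells. The one at 4.3 kb lay in the Nanog gene body and was in 3 Mi2B lists, flox/- day 8, +/+ iPS and ES.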

How the data were processed

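ChIP-seq peak lists were used for 43 of 52 samples; the other 9 are input libraries. Per the submitters' processing notes, which name no roles, the tools used were MACS 1.4.1, Bowtie 0.12.5 and CASAVA 1.8.2, with the mm9 build; settings and control libraries are not given in the sources used here. Each peak carries a score deposited by the authors, at least 50.0 in every list, used only within its list. Peaks were called per library, and read depth is unknown, so list length and peak width may vary with it.

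Samples were grouped by title. In 6 +/+ samples (4 have a list) title and stage label name different days, and the title was followed. Starts were written 1-based. Overlap meant 1 shared bp. Percentages in parentheses are the share of the whole list that meets the same overlap. Alternatives were a score of at least 100, equal numbers of top peaks, a midpoint in the stretch, 50% of a site covered and another reference list. Named sites were those in at least 2 factor lists and the widest and highest peak of each list; other peaks named were chosen after their values were seen. The members and lists were chosen with earlier results of these data known. No mm9 annotation was used, so other genes were not placed. The overlap code recovered 7134 and 18265 planted overlaps of 36285 in simulated data and gave the same count as bedtools 2.31.1, 14670. Python 3.11.15, pandas 2.3.3, numpy 2.4.6 and matplotlib 3.10.9 were used.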

Additional observations from a re-analysis of the deposited data

Results flagged for a closer look

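In 4 comparisons the length of the cluster under peaks moved in opposite directions in the 2 genotypes between stages. With 1 library each, none of these differences was tested. H3K4me3 from MEF to day 4 was higher by 727 bp in +/+ cells and differed by -1780 bp in flox/- cells. H3K27ac from day 8 to iPS was higher by 43661 bp in +/+ cells and differed by -20687 bp in flox/- cells. The whole H3K27ac lists moved in the same directions, from 97.1 to 122.3 Mb in +/+ and from 91.0 to 64.2 Mb in flox/-. Oct4 from day 4 to iPS was higher by 3361 bp in +/+ cells and differed by -627 bp in flox/- cells, whose iPS list has 3331 peaks. Mi2B from day 8 to iPS was higher by 19676 bp in +/+ cells and differed by -18728 bp in flox/- cells, whose iPS list has 3462 peaks. The part of list length in these values was not tested.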

How the results depend on the processing

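No paired analysis was possible because each group had 1 library and no test was made. Of 125 values under alternatives, 100 stayed within 1.5 times the value reported and in its direction, 24 moved further and 1 reversed. The 100 include every value of the midpoint alternative, 17 of covered length, 13 of earlier marked sites and 3 of Mbd3 peaks. They also include pairs with 0 bp in both genotypes, such as Oct4 in MEF, which could not move. Except where a value's construction shows it, the cause was not tested. The values below are flox/- minus +/+ covered length. With scores of at least 100, H3K27me3 in MEF reversed from -3248 to 447 bp, and H3K27me3 in iPS cells came to 0 bp, Oct4 on day 4 to 800 bp and Mi2B on day 8 to 7769 bp. With equal numbers of top peaks, H3K27me3, Oct4 and Mi2B in iPS cells came to -103, -681 and -10569 bp, from -482, -3779 and -25282 bp.

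For sites of +/+ iPS cells marked earlier, equal numbers left 3 of 9 H3K27ac sites in +/+ MEF and 3 of 9 in flox/- MEF. With 50% of a site covered, H3K27ac counts were 2 and 2 in MEF, 1 and 1 on day 4 and, on day 8, 4 in +/+ and 7 in flox/-, and Mi2B counts in +/+ were 0 on day 4 and 5 on day 8. With ES sites as the reference, H3K27ac in flox/- on day 8 was at 11 of 17 and Mi2B in flox/- on day 4 at 6 of 34, and with flox/- iPS sites Oct4 in flox/- on day 8 was at 5 of 5. With scores of at least 100, of 14 Mi2B sites 1 was marked on day 4 and 5 on day 8 in +/+ and 6 on day 8 in flox/-, and the 2 Mbd3 peaks left all overlapped Mi2B, Oct4 and H3K27ac, 2 of 2 each. The 4 libraries whose stage labels disagree are the only ones of their groups, so no value without them can be given.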
